A study of Mus musculus with 42 samples.

Results

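The demethylases Fto and Alkbh5 and the YTH readers Ythdf1, Ythdf2, Ythdf3, Ythdc1 and Ythdc2 were followed in mice that lack Pcif1. The 7 genes were taken by symbol, and all 7 were found in both tables, of 27409 rows in the testes table and 50765 in the brain table. By Ensembl identifier they are Fto (ENSMUSG00000055932, chromosome 8), Alkbh5 (ENSMUSG00000042650, chromosome 11), Ythdf1 (ENSMUSG00000038848, chromosome 2), Ythdf2 (ENSMUSG00000040025, chromosome 4), Ythdf3 (ENSMUSG00000047213, chromosome 3), Ythdc1 (ENSMUSG00000035851, chromosome 5) and Ythdc2 (ENSMUSG00000034653, chromosome 18). PCIF1 methylates the first transcribed adenosine of capped mRNA and so makes m6Am. The question here is whether the transcripts of these enzymes and readers differ, in antibody enrichment, input RNA or ribosome footprints, when that mark cannot be made.

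The testes groups were immunoprecipitated (IP) RNA from homozygous knockout (KO) mice, IP RNA from heterozygous (HET) mice, and the input RNA of KO and HET mice. The brain groups were ribosome footprints of KO mice, footprints of wild-type (WT) mice, and the input RNA of KO and WT mice. Each of these 8 groups held 3 libraries from adult animals. All mutant animals carry 1 Cas9-made deletion of 89 bp in Pcif1 that removes catalytic residues and creates an early stop codon, in a single line founded in B6D2F1/J embryos and crossed to C57BL/6J, so every tissue and cell type is affected and only 1 allele of the knockout was studied. The testes control carries 1 deleted copy of Pcif1, while the brain control carries none. The labels list 42 samples in 14 groups; the other 18 samples were not analysed here.

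N6-methyladenosine (m6A) inside mRNA and m6Am beside its cap carry the same methyl group on adenosine, and an antibody against m6A binds both. FTO removes the methyl group from both, and ALKBH5 from m6A; male mice without Alkbh5 have impaired spermatogenesis. YTH-domain proteins bind m6A: YTHDF2 recruits the CCR4-NOT deadenylase and promotes decay, YTHDF1 has been linked to translation, YTHDF3 works alongside both, YTHDC1 acts in the nucleus in splicing and export, and the helicase YTHDC2 is needed for meiosis in mice.

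PCIF1 acts on transcripts whose first base is A, so the annotated start of each member is shown, as bases from 20 upstream to 10 into the transcript on the gene's own strand. The sequences are from RefSeq on GRCm38.p6, and the capital marks the annotated first transcribed base. Windows are given for 5 of the 7 members; Ythdf3 and Ythdc2 are named only. The start of Fto lies at chr8:91313505-91313534 (plus strand), that of Alkbh5 at chr11:60537663-60537692 (plus), that of Ythdf1 at chr2:180920927-180920956 (minus), that of Ythdf2 at chr4:132212247-132212276 (minus) and that of Ythdc1 at chr5:86804246-86804275 (plus).
Fto: acacacaggaggcggggtccAgggcgaggg
Alkbh5: gggcggtcacggggcggactGggttgtggc
Ythdf1: cgctgacgtcgcgtagcttcGtcccagccg
Ythdf2: tcgcgccgggcccttccgcgTgggtcagcg
Ythdc1: aggaagcaggctccattttaGcgccgcccg
Among these windows, Fto was the one with an annotated A, and its A followed CC, giving CCA. Of 32851 RefSeq starts, 34.4% had A as first base, and 16.1% ended in CCA, GCA or TCA at the start, read on the transcript's strand. The annotation holds 1 start per gene, and start sites were not measured in these libraries.

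Levels are given as signal, which is a read number scaled by library, and testes reads could be recovered from it. Differences are on the log2(signal + 1) scale, which understates those of low genes, and were tested with limma over every gene that reached a signal of 10 in 3 or more libraries; a gene is called where the Benjamini-Hochberg adjusted p is under 0.05. The labels describe separate mice for the brain libraries and give no batches. They do not say whether the testes libraries came from separate mice, so p-values in testes measure only the spread between these libraries, which may be technical. The IP libraries held 1816831 to 4364847 reads in KO and 2689591 to 6574479 in HET, and the inputs held 4151226 to 4971554 in KO and 4224175 to 4907380 in HET. The depth of the brain libraries in reads is unknown. Protein-coding genes took 25.3 to 30.0% of the footprint signal in KO and 22.4 to 25.6% in WT, against 42.8 to 43.5% of KO inputs and 41.1 to 43.9% of WT inputs. Pcif1 itself had a signal of 182.2 to 354.3 in KO footprints and 229.2 to 241.6 in WT footprints, and of 200.7 to 259.4 in KO inputs and 252.6 to 387.7 in WT brain inputs. In testes it stayed at or below 10.4 in every library. The deletion is a small part of the gene, so these totals check no label. The tables were scaled separately and hold no gene lengths, so levels are compared between groups of 1 tissue for 1 gene only.

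In testes, the transcripts of Fto, Ythdc1 and Ythdf3 were enriched in KO IP over KO input. Fto and Ythdf3 were also enriched in HET IP. Fto gave a signal of 1513, 1698 and 1183 in KO IP and 1053, 985.5 and 942.5 in HET IP, against 426.2, 414.0 and 391.1 in KO input and 399.2, 448.0 and 423.0 in HET input. All 6 IP libraries lay above all 6 inputs, and the inputs of the genotypes overlapped. IP over input was a log2 of 1.82 ± 0.138 in KO and 1.23 ± 0.138 in HET (SE, n = 3 per group; limma, Benjamini-Hochberg adjusted p = 1.20e-07 and 1.06e-05). In KO, Fto ranked 55 of 12387 tested genes by p.

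Ythdc1, the nuclear reader, gave a signal of 752.9, 649.7 and 563.1 in KO IP and 435.6, 248.8 and 327.0 in HET IP. Its inputs were 279.1, 214.5 and 252.0 in KO and 266.4, 204.2 and 254.9 in HET. The KO IP libraries stood above all others, while HET IP overlapped its input at the low end. Ythdc1 was enriched in KO IP (log2 1.39 ± 0.195, limma, adjusted p = 3.46e-05), and its log2 in HET was 0.45 ± 0.195 (adjusted p = 0.0951). Without HET IP replicate 2, the lowest of that group, the HET value was 0.65 with limma's adjusted p = 0.0143, and over all alternatives the adjusted p ran from 0.0143 to 0.342.

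Ythdf3, which acts with the other cytoplasmic readers, gave a signal of 142.2, 152.0 and 147.8 in KO IP and 111.9, 131.3 and 144.7 in HET IP. Its inputs were 61.1, 96.7 and 75.3 in KO and 72.7, 73.9 and 94.0 in HET. Every IP library was above every input library. The log2 of IP over input was 0.94 ± 0.20 in KO and 0.68 ± 0.20 in HET (limma, adjusted p = 0.00131 and 0.0167). In HET this call was lost without IP HET replicate 3, input HET replicate 1 or input HET replicate 2, with log2 values of 0.60, 0.62 and 0.63 and limma's adjusted p = 0.0671, 0.0689 and 0.0650 (0.00499 to 0.0689 over all alternatives).

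For the decay reader Ythdf2, the signal was 92.8, 81.5 and 76.6 in KO IP and 70.1, 44.4 and 64.3 in HET IP, against 69.1, 80.2 and 66.3 in KO input and 64.8, 55.4 and 58.9 in HET input. IP and input overlapped in both genotypes, with a log2 of 0.22 ± 0.213 in KO and -0.03 ± 0.213 in HET. Ythdf1, linked to translation, had a low signal in these testes libraries. It gave 11.97, 15.4 and 9.91 in KO IP and 7.46, 10.4 and 10.7 in HET IP. Its inputs were 7.98, 13.5 and 13.1 in KO and 12.6, 8.31 and 7.97 in HET. Its log2 of IP over input was 0.11 ± 0.394 in KO and 0.00 ± 0.394 in HET, and all 4 groups overlapped.

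The m6A demethylase Alkbh5 also had a low signal in these testes libraries. It gave 25.4, 19.8 and 31.5 in KO IP and 13.4, 3.27 and 8.93 in HET IP, with inputs of 18.6, 21.0 and 22.9 in KO and 15.0, 11.1 and 11.9 in HET. These values rest on 61 reads in KO IP, 24 in HET IP, 77 in KO input and 46 in HET input, summed over 3 libraries. IP and input overlapped in each genotype, at a log2 of 0.27 ± 0.416 in KO and -0.68 ± 0.416 in HET. Ythdc2, the meiotic helicase, was at the edge of detection in these libraries. It had 1, 0 and 0 reads in KO IP and 0 in each HET IP library. Its inputs had 2, 6 and 0 reads in KO and 1, 1 and 0 in HET. A count of 0 allows up to 3 reads, a signal of 1.96 to 4.48 in the HET IP libraries, counting error only. Ythdc2 was therefore not tested in testes, and 6 of the 7 members were.

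**Figure D1:**
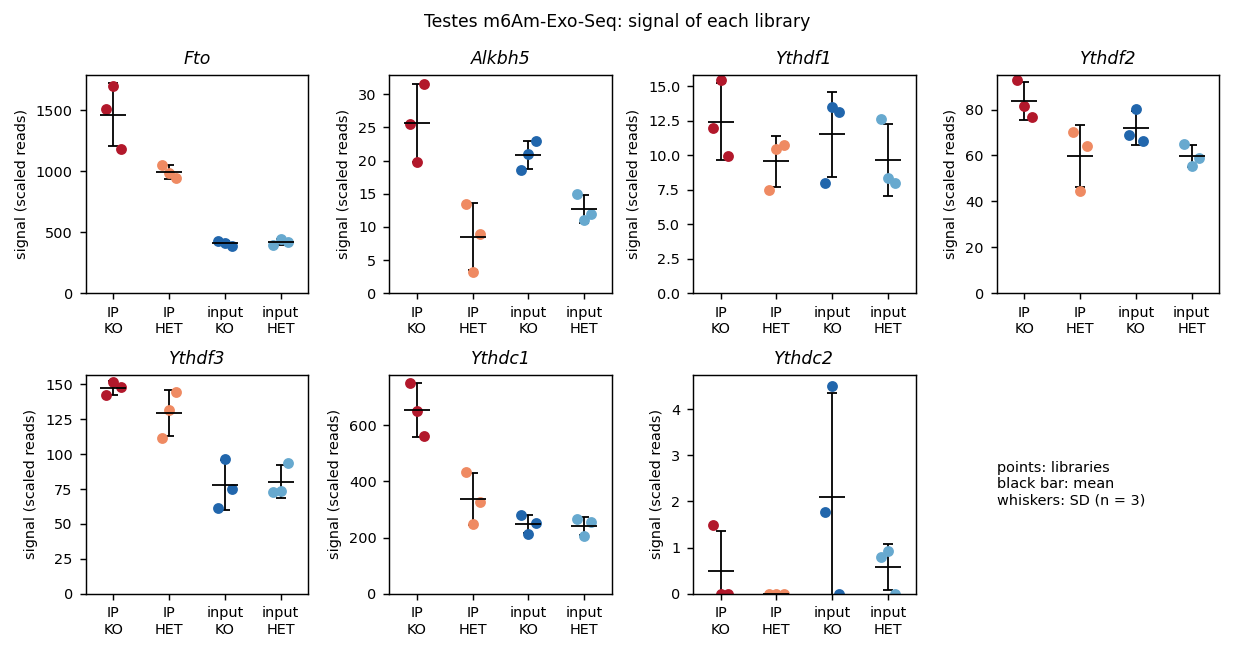
Signal (reads scaled by the library factor, linear axis from 0) of each member in KO IP, HET IP, KO input and HET input of testes; points are libraries, the black bar the mean and whiskers the SD (n = 3). Fto and Ythdc1 stand highest in KO IP, at 1183 to 1698 and 563.1 to 752.9, while Ythdc2 stays below 5 in every library.

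In KO, 3 of 6 tested members were thus called, all enriched, where 45.5% of 12387 genes were called and 21.2% were called higher. In HET, 2 of 6 were called, both enriched, where 30.1% of genes were called and 14.7% were called higher. For 6 genes these counts are a description. The median over all genes was -0.07 in KO and 0.02 in HET, and the member medians were 1.04 in KO and 0.28 in HET for the 2 demethylases, and 0.58 in KO and 0.22 in HET for the 4 tested readers.

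To ask whether the enrichment itself differed between genotypes, the log2 of IP over input in KO was compared with that in HET. Because signal is scaled by library, such a difference is relative to the other genes. It cannot show an absolute rise or fall in antibody binding. Ythdc1 was the 1 member called, with enrichment higher in KO than in HET by 0.94 ± 0.276 on the log2 scale (95% interval 0.36 to 1.53; limma, adjusted p = 0.0414). Across all genes 9.97% were called and 3.72% called higher, and 91.6% of the tested genes had a smaller difference than Ythdc1. Fto differed by 0.59 ± 0.195 (interval 0.18 to 1.00), which missed the threshold (limma, adjusted p = 0.0659). In the authors' deposited table both pass, with log2 0.93 and adjusted p = 0.0147 for Ythdc1 and log2 0.60 and adjusted p = 0.0228 for Fto. On recovered reads, DESeq2 and edgeR also called both, with Fto at 0.61 (DESeq2, adjusted p = 0.0265) and 0.65 (edgeR, adjusted p = 0.0398).

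The Ythdc1 call was lost in 11 of 19 alternatives, with log2 differences of 0.74 to 1.15 and limma, DESeq2 or edgeR adjusted p from 0.00862 to 0.116 over all of them. It was lost with no filter on low values (adjusted p = 0.0677) and with scaling by the protein-coding total (adjusted p = 0.0512, both limma). It was also lost without KO IP replicate 1 or 2, HET IP replicate 2 or 3, any 1 KO input library, or HET input replicate 1 or 3, at 0.74 to 1.03 and limma's adjusted p of 0.0527 to 0.116. Fto passed without KO IP replicate 3 (0.73, limma, adjusted p = 0.0181) or without HET IP replicate 1 (0.63, adjusted p = 0.0469), within a range of 0.0181 to 0.147 over its alternatives.

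None of the other 4 tested members was called in this comparison. Alkbh5 differed by 0.94 ± 0.588 (interval -0.30 to 2.19), almost the same size as Ythdc1 but with a larger error, and Ythdf1 by 0.12 ± 0.558, Ythdf2 by 0.24 ± 0.302 and Ythdf3 by 0.25 ± 0.282. The authors' deposited table gives Alkbh5 a log2 of 1.04 with adjusted p = 0.325. All 6 estimates were above 0, although Ythdf1 was below 0 in 4 of 19 alternatives, and the median over all genes was -0.01. The intervals of Alkbh5, Ythdf1, Ythdf2 and Ythdf3 included 0. Of all tested genes, 56.9% had a smaller difference than Ythdf1, 63.5% than Ythdf2, 64.2% than Ythdf3 and 91.6% than Alkbh5.

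**Figure D2:**
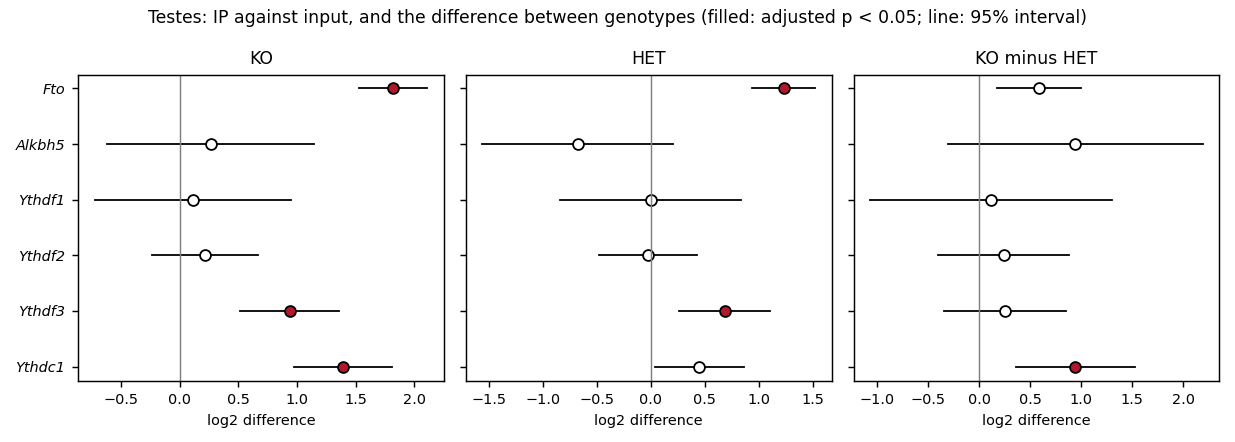
Log2 difference of IP against input in KO (left), in HET (middle) and the KO minus HET difference of those (right) for the 6 tested members, with 95% intervals as lines and filled points for limma's adjusted p under 0.05. Ythdc1 is the filled point at right, at 0.94, and the interval of Fto runs from 0.18 to 1.00.

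Within the IP libraries alone, Ythdc1, Alkbh5 and Fto were higher in KO than in HET. The log2 differences were 0.98 ± 0.229 for Ythdc1, 1.62 ± 0.535 for Alkbh5 and 0.54 ± 0.185 for Fto (limma, adjusted p = 0.00802, 0.0390 and 0.0445), and the ranges of the genotypes did not overlap for any of the 3. Across all genes 26.3% were called and 11.5% called higher. By limma 3 of 6 tested members (50%) had an unadjusted p under 0.05, against 40% of all tested genes. The share of all genes without overlap was not counted in any comparison, so gaps between ranges are a description only. Ythdf2 also had ranges that did not overlap but was not called (0.50 ± 0.281, limma, adjusted p = 0.199), and Ythdf1 and Ythdf3 stood at 0.34 ± 0.506 and 0.19 ± 0.226. The Ythdc1 call held in 14 of 14 alternatives. The Fto call was lost with no filter (limma, adjusted p = 0.0759) and without any 1 IP library except KO IP replicate 3 (log2 0.43 to 0.59, adjusted p = 0.0507 to 0.165). The Alkbh5 call was lost with no filter (adjusted p = 0.0672) and without KO IP replicate 1 or 3 or HET IP replicate 2 or 3 (log2 1.13 to 1.74, limma, adjusted p = 0.0830 to 0.127).

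In the testes inputs, no member was called between genotypes. These inputs belong to an assay of capped RNA ends, and Prm1 and Odf1, abundant in late spermatids, were near 0 in them. Their signal therefore need not follow the abundance of whole transcripts. Limma called 0 of 6 members in KO input against HET input, where it called 9.33% of all genes, and DESeq2 and edgeR also called 0 members. By limma 1 of 6 members (16.7%), Alkbh5, had an unadjusted p under 0.05, against 26.1% of all tested genes. Alkbh5 input was higher in all 3 KO libraries than in any HET library, with a log2 of 0.68 ± 0.278 (interval 0.08 to 1.28; limma, adjusted p = 0.138). Ythdf2 inputs did not overlap either (0.26 ± 0.161, limma, adjusted p = 0.324). The others were -0.04 ± 0.0914 for Fto, 0.23 ± 0.357 for Ythdf1, -0.06 ± 0.184 for Ythdf3 and 0.04 ± 0.130 for Ythdc1, with intervals reaching from -0.54 to 1.00 for the widest, Ythdf1.

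Some cell type markers differed between these testes libraries, and the members of a list did not always move together. The summed signal of 6 round spermatid markers, all detected, was 1703 to 2452 in KO IP and 3788 to 3959 in HET IP, and 1787 to 2120 in KO input and 2616 to 2853 in HET input. In the IP libraries limma called 4 of these 6 lower in KO and 0 higher, and in the inputs 3 lower and 0 higher. Over all genes 11.5% were called higher and 14.8% lower in IP, and 3.32% higher and 6.01% lower in input. In the enrichment difference 3.72% of all genes were called higher and 6.25% lower. The sum of 6 spermatogonial markers was 223.0 to 266.5 in KO IP and 168.6 to 186.8 in HET IP, and 183.7 to 191.4 in KO input and 128.9 to 143.2 in HET input. Of the 5 tested in IP, 1 was called higher, Zbtb16 (log2 1.68 ± 0.466, limma, adjusted p = 0.0184), and in the inputs 0 of 4 were called by limma, with 1 at an unadjusted p under 0.05. Meiotic spermatocyte markers summed to 3323 to 3619 in KO IP and 2326 to 2900 in HET IP, with inputs of 2073 to 2354 in KO and 1999 to 2157 in HET. That sum was mostly Piwil1, at 2484 to 2775 in KO IP and 1415 to 2072 in HET IP, and Ccna1, at 686.6 to 768.6 in KO IP and 638.5 to 801.4 in HET IP. The list itself leaned the other way: its median log2 was -0.59 in IP KO against HET, with Piwil1 higher (0.64 ± 0.184) and Spo11 lower (-1.87 ± 0.528, limma, adjusted p = 0.0214 and 0.0204) of 6 tested, and -0.92 in the enrichment difference, with Spo11 the 1 called, lower. Spo11 stood at 2.99 to 8.11 in KO IP and 17.9 to 29.4 in HET IP. Elongating spermatid markers, nearly all of it Oaz3, summed to 11453 to 12031 in KO IP and 16363 to 33174 in HET IP, with inputs of 8090 to 8113 in KO and 9440 to 10715 in HET. Their list median was -0.61 in IP KO against HET, where limma called 1 of 4 tested lower and 0 higher. Oaz3, Tnp1 and Tnp2 were lower in KO IP without overlap, while Prm2 overlapped, at 335.2 to 663.1 in KO IP and 186.1 to 566.4 in HET IP. Limma called 1 of 4 lower in the inputs and 0 in the enrichment difference. Sertoli cell markers summed to 676.1 to 829.2 in KO IP and 553.4 to 671.8 in HET IP, with inputs of 585.0 to 654.0 in KO and 506.2 to 592.1 in HET. The higher sum in KO IP came from Wt1, at 347.9 to 495.4 in KO IP and 151.0 to 184.2 in HET IP, the 1 called of 3 tested Sertoli markers; Clu was at 244.4 to 303.6 in KO IP and 305.8 to 453.8 in HET IP, and the list median was -0.06. Markers of Leydig cells and of macrophages summed to at most 41.8 each in every group. In bulk tissue, fewer cells of a type and less RNA per cell cannot be told apart, and the part of either in the member values was not tested. Several defining markers were at or near 0 in every testes group, among them Prm1 (at most 2.45), Odf1 (at most 4.40) and Sox9 (at most 1.79), although Prm1 and Odf1 transcripts are abundant in late spermatids. Other elongating spermatid markers were not near 0: every testes library had Prm2 at 89.2 or above, Tnp1 at 70.0 or above and Tnp2 at 33.5 or above.

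Genes of the same pathway were read beside the members. Among the KO minus HET enrichment differences, 0 of 6 other AlkB genes were higher and 1 lower, 0 of 12 methyltransferase genes were higher and 1 lower, 0 of 10 non-YTH m6A-binding proteins were called, and 2 of 20 partners of YTH readers were higher and 1 lower. Over all genes 9.97% were called. Of the 48 genes of these lists, 8 (16.7%) had an unadjusted p under 0.05, against 26.6% of all tested genes. The list medians were 0.10, -0.13, -0.05 and 0.10 in that order, and -0.01 over all genes. Rida, which links YTHDF2 to RNA cleavage and averaged a signal of only 2.70 in KO IP, was lower at -2.99 ± 0.915 (limma, adjusted p = 0.0494). The U6 methyltransferase Mettl16 was lower at -1.98 ± 0.505 and Alkbh3, another AlkB enzyme, at -1.76 ± 0.341 (limma, adjusted p = 0.0223 and 0.00585). Cnot6l, a catalytic deadenylase of CCR4-NOT, was higher at 1.29 ± 0.353 (limma, adjusted p = 0.0306).

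In the testes inputs, 1 of 11 tested methyltransferase genes was higher: Mettl3, the catalytic subunit of the m6A writer, averaged 179.3 ± 28.1 in KO and 82.1 ± 2.95 in HET (SD, n = 3 each; log2 1.11 ± 0.139, limma, adjusted p = 0.000675). Of 10 other m6A-binding proteins 1, Fmr1, was higher (0.47 ± 0.127), and of 18 partners 1, Upf1, the helicase of nonsense-mediated decay, was higher (0.37 ± 0.102, limma, adjusted p = 0.0348 and 0.0389). None of 5 other AlkB genes was called by limma. Over all genes 3.32% were called higher and 6.01% lower in the inputs. In the IP libraries, KO against HET, 0 of 6 other AlkB genes were higher and 1 lower, 2 of 11 methyltransferase genes higher and 1 lower, 1 of 9 m6A-binding proteins higher and 1 lower, and 3 of 19 partners higher and 1 lower. Over all genes 11.5% were called higher and 14.8% lower in this IP comparison. The largest calls of these lists were Rbm15b at 1.99 ± 0.609, Alkbh3 at -1.90 ± 0.297, Mettl16 at -1.79 ± 0.465 and Cnot6l at 1.76 ± 0.345.

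Relative to input, the largest calls in KO IP were Mettl16 at -2.28 ± 0.357, Rida at -2.15 ± 0.647, Alkbh8 at 1.88 ± 0.521 and Rbm15 at 1.73 ± 0.306. In HET IP they were Rbm15 at 1.23 ± 0.306, Cnot2 at -1.22 ± 0.324, Cbll1 at -1.18 ± 0.388 and Nxf1 at -1.10 ± 0.158. Over the 4 lists, 1 of 12 methyltransferase genes was enriched in each genotype, with 3 depleted in KO and 2 in HET. Of 6 other AlkB genes, 2 were enriched and 1 depleted in KO, against 1 enriched in HET, and of 10 m6A-binding proteins 2 were enriched and 1 depleted in KO, against 3 enriched in HET. Of 20 partners of the readers, 4 were enriched and 4 depleted in KO, against 3 enriched and 4 depleted in HET. Over all genes 21.2% were called enriched and 24.3% depleted in KO, against 14.7% enriched and 15.4% depleted in HET.

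The IP values were also set beside the annotated first base. Genes starting with A had a median KO minus HET enrichment difference of -0.10 (2193 genes), with 8.44% called lower, against -0.01 for C (1060 genes, 6.32%), 0.03 for G (3622 genes, 5.69%) and -0.08 for T (633 genes, 6.16%). Fto, with its annotated A, had a difference of 0.59, and 79.9% of all tested genes had a smaller one. In HET IP over input the A genes had a median of 0.14, with C at -0.06, G at -0.05 and T at 0.00, and Fto stood above all of these medians at 1.23. In KO IP over input the A genes also had the highest median, at -0.06, with C at -0.16, G at -0.11 and T at -0.18, and Fto stood at 1.82. These classes hold only a part of the 12387 tested genes, those given a first base from the annotation. The other members with a window start with G or T, and Ythdc1, with G, had the same direction as Fto.

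**Figure D3:**
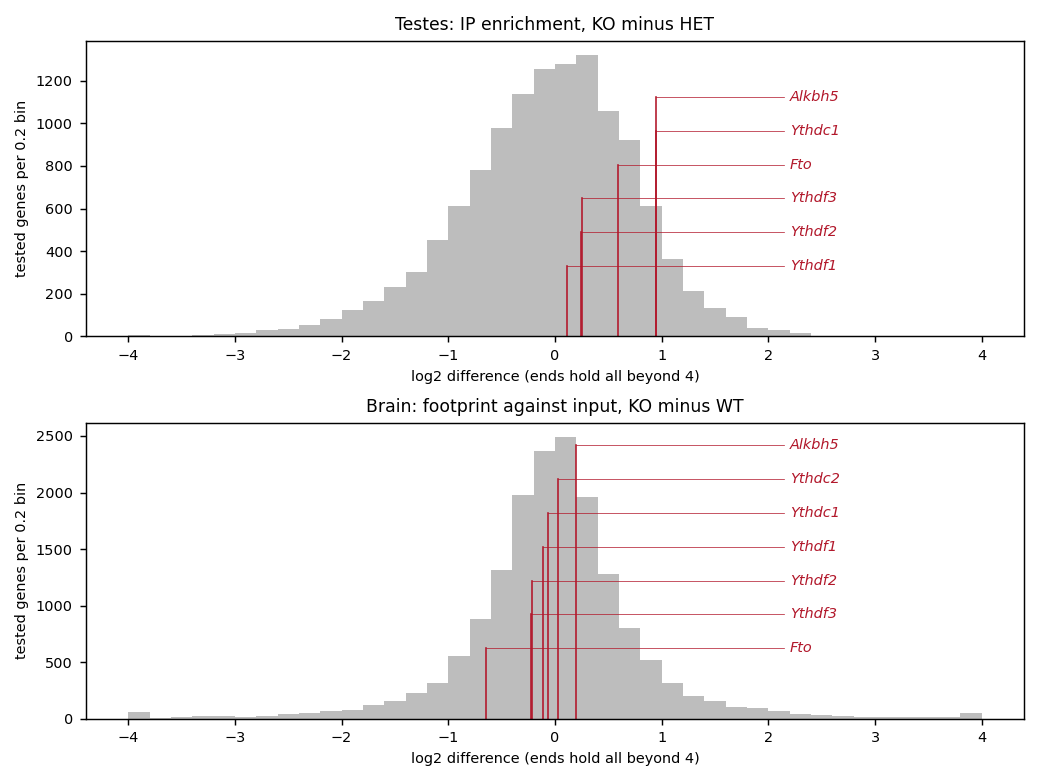
Number of tested genes per 0.2-wide bin of the log2 difference between genotypes (linear axes), for IP enrichment in testes (KO minus HET, 12387 genes) and for footprint against input in brain (KO minus WT, 16527 genes), with members as red lines. The 6 testes members lie between 0.12 and 0.94, and the 7 brain members between -0.64 and 0.20.

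In brain, all 7 members passed the filter, and the footprint signal of each was compared with its input signal. Gene and coding lengths were not given, so footprint over input does not measure ribosome load per transcript. Fto was richer in footprints than in input, and Alkbh5 and Ythdc2 poorer, in both genotypes. Fto footprints had a signal of 1093, 1100 and 1101 in KO and 2180, 992.6 and 1604 in WT, against inputs of 498.6, 521.2 and 574.6 in KO and 469.1, 473.3 and 461.8 in WT. The KO footprints lay close together (SD 3.98), whereas the WT footprints were spread (SD 593.9), and they overlapped. Footprint over input was a log2 of 1.05 ± 0.217 in KO and 1.69 ± 0.217 in WT (limma, adjusted p = 0.00184 and 5.64e-05).

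Alkbh5 footprints were 227.1, 291.5 and 209.4 in KO and 249.3, 213.5 and 164.5 in WT, with inputs of 471.7, 555.2 and 525.0 in KO and 482.2, 562.1 and 488.3 in WT. Every footprint value was below every input value. The log2 was -1.10 ± 0.174 in KO and -1.30 ± 0.174 in WT (limma, adjusted p = 0.000291 and 7.86e-05). Ythdc2 footprints were 219.5, 192.3 and 201.5 in KO and 199.7, 173.7 and 190.8 in WT, with inputs of 306.5, 329.5 and 260.1 in KO and 222.0, 330.6 and 297.6 in WT. These did not overlap either, at -0.54 ± 0.164 in KO and -0.57 ± 0.164 in WT (limma, adjusted p = 0.0166 and 0.0118). In KO the Ythdc2 call was lost without footprint KO replicate 2 (-0.50, adjusted p = 0.0534) or input KO replicate 2 (-0.47, adjusted p = 0.0580), and in WT without input WT replicate 2 (-0.45, limma, adjusted p = 0.0566).

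Ythdf2 footprints were 263.5, 192.8 and 318.7 in KO and 305.2, 232.4 and 283.6 in WT, with inputs of 219.5, 185.9 and 162.4 in KO and 240.5, 150.2 and 144.2 in WT. Footprint and input overlapped in both genotypes, at 0.43 ± 0.240 in KO (adjusted p = 0.157) and 0.65 ± 0.240 in WT (limma, adjusted p = 0.0396). The WT call was lost in 8 of 17 alternatives, at limma's adjusted p of up to 0.198. By limma these were no filter (adjusted p = 0.0608), scaling by the protein-coding total (log2 0.38, adjusted p = 0.198), and leaving out footprint WT replicate 1 or 3, input WT replicate 2 or 3, footprint KO replicate 1 or input KO replicate 2 (log2 0.51 to 0.65, adjusted p = 0.0501 to 0.138).

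For Ythdf1, Ythdf3 and Ythdc1 no difference passed. Ythdf1 footprints were 299.7, 349.1 and 274.0 in KO and 280.6, 296.6 and 273.2 in WT, with inputs of 249.7, 301.6 and 348.3 in KO and 281.4, 237.8 and 246.2 in WT. Ythdf3 footprints were 287.0, 296.1 and 296.1 in KO and 275.5, 341.3 and 267.9 in WT, with inputs of 344.0, 307.5 and 377.4 in KO and 314.4, 246.4 and 323.8 in WT. Ythdc1 footprints were 349.7, 360.1 and 397.5 in KO and 288.8, 391.8 and 308.8 in WT, with inputs of 286.4, 360.8 and 251.5 in KO and 261.8, 216.8 and 281.2 in WT. Footprint over input was 0.04 ± 0.150 in KO and 0.15 ± 0.150 in WT for Ythdf1, -0.22 ± 0.147 in KO and 0.00 ± 0.147 in WT for Ythdf3, and 0.31 ± 0.171 in KO and 0.38 ± 0.171 in WT for Ythdc1. Ythdf3 footprints lay below its inputs in KO and Ythdc1 footprints above its inputs in WT without overlap, and the other pairs overlapped. None of these passed limma's test, with Ythdf3 in KO called under protein-coding scaling (-0.43, limma, adjusted p = 0.0348) and Ythdc1 in KO called without input KO replicate 2 (0.46, adjusted p = 0.0497).

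**Figure D4:**
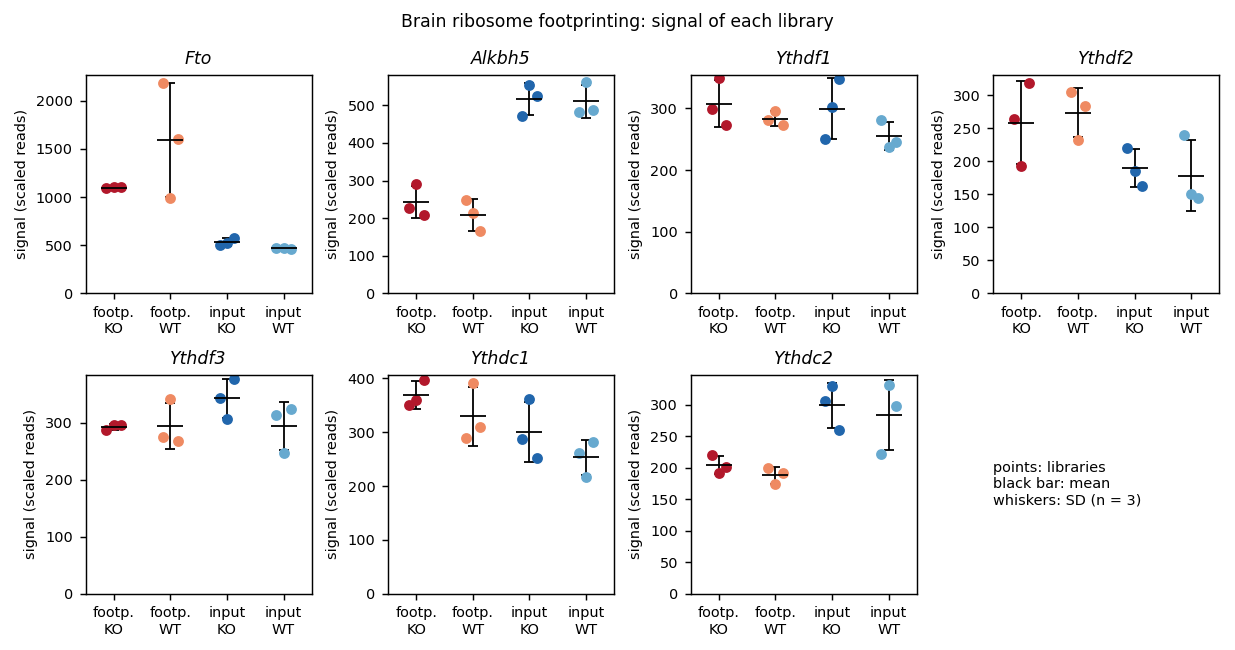
Signal of each member in KO footprints, WT footprints, KO input and WT input of brain, drawn as in the testes plot of signals (linear axes from 0, points are libraries, mean and SD of 3). Alkbh5 and Ythdc2 footprints lie below their inputs, and Fto footprints lie above, with WT footprints of Fto spread from 992.6 to 2180.

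In KO, 3 of 7 members were called, 1 higher and 2 lower, where 52.4% of 16527 genes were called, 24% higher and 28.4% lower. In WT, 4 of 7 were called, 2 higher and 2 lower, where 54.3% were called, 25.2% higher and 29.1% lower. The members' shares were near this background. Of 7 other AlkB genes 1 was higher and 1 lower in each genotype. Of 14 methyltransferase genes 3 were higher and 5 lower in KO, against 2 higher and 4 lower in WT. Of 8 m6A-binding proteins 4 were higher in KO, against 5 higher and 1 lower in WT, and of 18 partners 4 were higher and 5 lower in KO, against 4 higher and 4 lower in WT. The largest calls of the other lists in KO were Cbll1 at 2.60 ± 0.326, Cnot6 at -2.55 ± 0.328, Rbm15b at -2.53 ± 0.251 and Hnrnpa2b1 at 2.23 ± 0.285. In WT they were Hnrnpa2b1 at 2.80 ± 0.285, Cnot6 at -2.48 ± 0.328, Cbll1 at 2.32 ± 0.326 and Cnot3 at 2.25 ± 0.359. Hnrnpa2b1 encodes a nuclear RNA-binding protein, Cbll1 a subunit of the m6A writer complex, and Cnot3 a scaffold subunit of CCR4-NOT.

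Between genotypes, no member was called in brain. Limma called 0 of 7 in the KO minus WT difference of footprint against input, 0 of 7 between footprints and 0 of 7 between inputs, where 0.188%, 0.223% and 0.255% of genes were called, and 0 members had an unadjusted p under 0.05 in any of the 3. Fto had the largest difference in footprint against input, at -0.64 ± 0.307 (interval -1.32 to 0.03; limma, adjusted p = 0.525), and the authors' deposited table gives -0.72 with adjusted p = 0.377. Its footprints differed by -0.46 ± 0.269 (limma, adjusted p = 0.523). Its inputs were above WT in all 3 KO libraries, at 0.18 ± 0.0903 (limma, adjusted p = 0.524).

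Whether Fto was called depended on WT footprint replicate 2, at 992.6 the lowest Fto value of its group. Without it, Fto was lower in KO, at a log2 of -0.95 in footprint against input and -0.77 in footprints (limma, adjusted p = 0.0152 and 0.0376; 0.0152 to 0.736 and 0.0376 to 0.853 over all alternatives). Without that library 874 genes were called in footprint against input, against 31 with it, and 956 in footprints, against 32 with it. The libraries also differed in ribosomal RNA (rRNA): WT footprint replicates 1, 2 and 3 held 49.9, 74.4 and 58.7% of their signal as rRNA, with Fto at 2180, 992.6 and 1604, and KO footprints held 72.6, 68.9 and 67.6%, with Fto at 1093, 1100 and 1101. In these WT libraries Fto was lower where the rRNA share was higher. Protein-coding genes held 22.4, 23.9 and 25.6% in WT replicates 1, 2 and 3, and 25.3, 28.8 and 30.0% in KO. WT replicates 1 and 3 thus held more signal in neither class than replicate 2 or any KO footprint library. In rRNA share and in Fto, WT replicate 2 was the WT library nearest to KO. The calls without it compare KO with the 2 WT libraries of differing composition, whose part in them was not tested. With scaling by the protein-coding total the Fto difference in footprint against input was -0.59 (limma, adjusted p = 0.537), and the part of the rRNA share in it was not otherwise tested. Without WT footprint replicate 1, which had the highest Fto value, it was -0.38 (limma, adjusted p = 0.736). Over the other 6 members the differences in footprint against input ran from -0.22 ± 0.208 for Ythdf3 to 0.20 ± 0.247 for Alkbh5.

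**Figure D5:**
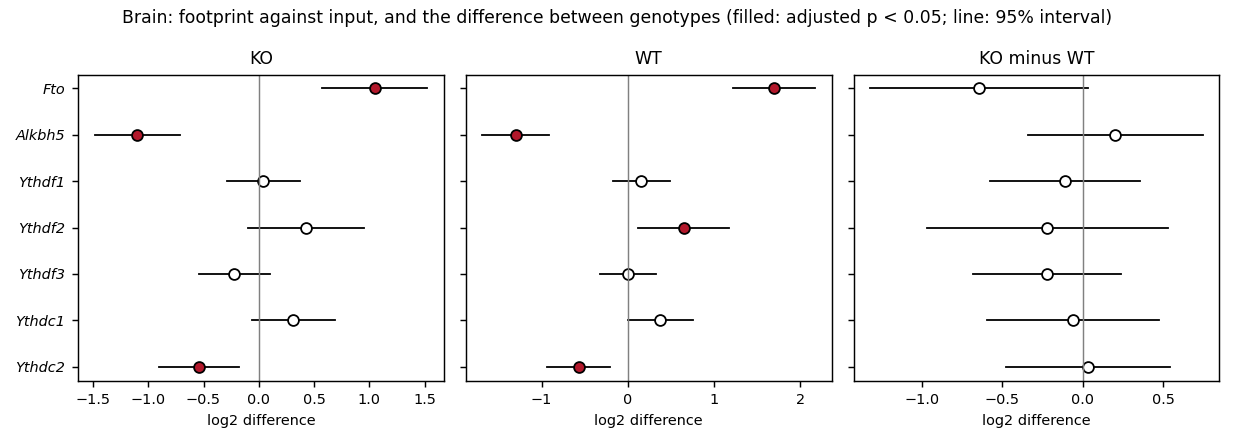
Log2 difference of footprint against input in KO (left), in WT (middle) and the KO minus WT difference of those (right) for all 7 members, with 95% intervals as lines and filled points for limma's adjusted p under 0.05. Fto and Alkbh5 are filled on opposite sides of 0 in both genotypes, and no point is filled at right.

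In the other pathway lists, limma called 0 of 47 tested genes between genotypes in brain footprint against input, in footprints and in inputs, with 4, 8 and 3 genes at an unadjusted p under 0.05 (8.51, 17 and 6.38%), against 9.78, 10.8 and 10.5% of all tested genes. The oligodendrocyte markers Mag and Mog lay apart in footprints, with Mag at 3927 to 4634 in KO and 2468 to 2879 in WT footprints and Mog at 875.8 to 1170 in KO and 377.4 to 680.2 in WT footprints, while Mbp overlapped. In inputs Mbp was at 8645 to 8738 in KO and 5661 to 6660 in WT and Mog at 573.0 to 620.8 in KO and 425.3 to 480.0 in WT, while Mag overlapped. Limma called none of these markers in footprints (adjusted p = 0.239 for Mag, 0.344 for Mog and 0.924 for Mbp) or in inputs (adjusted p = 0.961 for Mag, 0.215 for Mog and 0.101 for Mbp). Neuronal markers, 5 of 5 detected, summed to 32113 to 34869 in KO footprints and 27974 to 34857 in WT footprints. Astrocyte markers (4 of 4 detected) summed to 7776 to 9460 in KO and 8409 to 10093 in WT footprints, and microglial markers (4 of 4) to 477.7 to 579.4 in KO and 580.2 to 905.9 in WT footprints. The gap in microglial markers was mainly C1qa, at 176.3 to 198.0 in KO and 311.3 to 566.5 in WT footprints; P2ry12 and Cx3cr1 overlapped, and limma called 0 of 4, with 1 at an unadjusted p under 0.05. Endothelial markers (3 of 3) summed to 771.2 to 858.4 in KO and 487.6 to 698.2 in WT footprints. That gap was Flt1, at 484.6 to 613.0 in KO and 151.3 to 445.1 in WT footprints; Cldn5 and Pecam1 overlapped, and limma called 0 of 3, with 1 at an unadjusted p under 0.05. Choroid plexus markers (3 of 3) summed to 5522 to 7946 in KO and 6585 to 7773 in WT footprints, and blood cell markers (3 of 3) to 5263 to 8263 in KO and 2205 to 10358 in WT footprints. The part of these cells in the member values was not tested.

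The genes whose log2 signal followed a member most closely over the 12 libraries of a tissue are given as a description; the libraries share 4 groups and their scaling. For Fto they were Rsbn1 (Pearson r = 0.995) and Ybx1 (0.991) in testes, and Snx32 (0.994) and Got2 (0.993) in brain. For Alkbh5 they were Ccdc61 (0.954) and 9930021J03Rik (0.953) in testes and Gm340 (0.990) and Zfp641 (0.987) in brain. For Ythdc1 they were Gm18336 (0.988) and Stk11 (0.984) in testes and Rab33a (0.962) and S1pr5 (0.921) in brain.

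Ordered within testes from high to low, Fto was KO IP, HET IP, HET input and KO input, with neighbours overlapping between the inputs only. Ythdc1 was KO IP, HET IP, KO input and HET input, with overlap below KO IP, and Ythdf3 had the order of Fto, with overlap within the IP groups and within the inputs. Alkbh5 ran KO IP, KO input, HET input and HET IP, with overlap on each side of a gap between the genotypes. In brain, Alkbh5 and Ythdc2 were highest in inputs, where KO and WT overlapped, with a gap before the footprints, and Fto was highest in footprints with a gap before the inputs. Ythdf1, Ythdf2, Ythdf3 and Ythdc1 had no gap between neighbouring groups in brain. By RefSeq, Fto overlaps another gene, the long non-coding RNA 4831440D22Rik, which was listed at 0 in 11 of 12 brain libraries and at 1.51 in WT footprint replicate 2; the other 6 members overlap none.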

How the data were processed

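Brain was measured by ribosome footprinting and testes by m6Am-Exo-Seq, which precipitates capped RNA ends with an antibody against m6A, in 12 libraries each. The authors deposited 1 table per assay, and its values are signal, reads scaled by a library factor. The tables also hold the authors' own log2 fold and adjusted p-value for the genotype difference, as deposited, printed only where named. The submitters' processing notes list, without roles, DESeq2 1.25.10, DESeq, R 3.6.2, STAR and Salmon 0.12.0. Build, annotation and strand setting were not given in the sources used here. Testes signal came out as whole reads for 100% of values (tolerance 0.01), so reads were recovered; brain signal did not.

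Genes were tested with limma 3.58.1 (R 4.3.3, empirical Bayes with a mean-variance trend) on log2(signal + 1), with Benjamini-Hochberg adjustment over all genes. KO against control within a library type used 6 libraries. IP or footprint against input, and its genotype difference, came from 1 model over 12 libraries, whose spread is shared. edgeR 4.0.16 and DESeq2 1.42.0 on recovered testes reads were alternatives, with other pseudocounts, no filter, other scalings, spread over all 12 libraries, and each library left out. Only the genotype difference over 12 libraries was tried on simulated counts. The simulation gave all genes 1 fixed spread, so it cannot show how the test does on uneven libraries such as the WT footprints. Of the testes rows, 704 without a gene name were kept by identifier, and 0 library columns were left unused. Replicates were numbered in accession order; p-values measure the spread between these libraries. Read intervals cover counting error only.

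All 7 members were named in every comparison. From the other lists (other AlkB genes, methyltransferases, non-YTH m6A-binding proteins, partners of YTH readers), at most 4 called genes per comparison, those with the largest differences, were named. The members and lists were chosen with earlier results of these data known. One marker gene is not reported here.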

Additional observations from a re-analysis of the deposited data

Results flagged for a closer look

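The IP enrichment of Ythdc1 in testes differed between genotypes by 0.94 on the log2 scale, higher in KO (1.39 in KO and 0.45 in HET), by limma's test of the difference itself (Benjamini-Hochberg adjusted p = 0.0414, 95% interval 0.36 to 1.53). All 3 KO IP libraries lay above all 3 HET IP libraries. Signal is scaled by library, so the difference is relative to the other genes. The call was lost in 11 of 19 alternatives, with limma, DESeq2 or edgeR adjusted p from 0.00862 to 0.116 over all of them. Round spermatid markers differed between the same libraries, with a summed signal of 1703 to 2452 in KO IP and 3788 to 3959 in HET IP. By limma 3 of 6 were lower in the enrichment difference, where 6.25% of all genes were called lower. The part of these markers in the Ythdc1 value was not tested.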

How the results depend on the processing

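The number of members called changed as follows, limma unless named. In the KO minus HET enrichment difference (1 member) it was 0 with no filter and with protein-coding scaling, 2 with DESeq2 and with edgeR, and 0 to 2 with 1 library left out. For IP in KO against HET (3) it was 1 with no filter and 1 to 2 with 1 library left out. For IP against input in HET (2) it was 1 to 3 with 1 library left out. For footprint against input it was, in KO (3), 4 with protein-coding scaling and 2 to 3 with 1 library left out, and, in WT (4), 3 with no filter and with protein-coding scaling and 2 to 4 with 1 library left out. For brain footprint against input between genotypes and for footprints (0 each) it was 0 to 1, the 1 being Fto without WT footprint replicate 2. Over 1032 alternatives of single members, 979 stayed on their side of the threshold. Among these, called values kept their sign, whatever their size, and uncalled ones moved by less than the error. Of the rest, 36 lost and 9 gained a call, and 8 moved by more than the error without a call. No called value changed sign, while 46 uncalled ones did.

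Gene counts moved by over 1.5 times in these cases. Enrichment difference: 1235 genes, 793 with no filter, and 546 to 814 without 1 of the input libraries. IP in KO against HET: 2988 genes, 4780 with the spread over 12 libraries, 1606 without HET IP replicate 3. Testes input: 1052 genes, 25 with the spread over 12 libraries, 281 to 615 without KO replicate 2 or 3 or any 1 HET replicate. Footprint against input between genotypes: 31 genes, 874 without WT footprint replicate 2, and 15 to 20 without WT footprint replicate 3, KO input replicate 3, or WT input replicate 1 or 2. Footprints: 32 genes, 21 with pseudocount 0.5, 162 with the spread over 12 libraries, 956 without WT replicate 2, 17 and 18 without WT replicates 1 and 3, and 0 without any 1 KO library. Brain input: 39 genes, 7 to 24 without any 1 library.

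Protein-coding scaling moved the median of all genes to -0.21 in KO IP and -0.11 in HET IP against input, and to -0.29 in KO and -0.35 in WT footprints against input. Higher and lower calls were then 2055 and 3595 in KO IP (2632 and 3005 as deposited), 1312 and 2433 in HET IP (1822 and 1910), 634 and 432 in testes input (374 and 678), and 3191 and 5935 in WT footprints (4168 and 4809). No paired analysis was possible because the labels carry no replicate numbers. Alkbh5, Ythdf1 and Ythdc2 rest on few testes reads, and the brain depth in reads is unknown.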
